A study of Bos taurus with 16 samples.

Results

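NFU1 encodes a mitochondrial protein that carries iron-sulfur clusters, and it was set here beside the genes that act before and around it in cluster assembly. The rule named 9 genes and took those for which the array annotation gives a probe set with exactly 1 gene symbol. This left 8 genes of the 18435 measured in this way, NFU1 and its 7 partners NFS1, HSCB, GLRX5, ISCA1, ISCA2, BOLA3 and LIAS. Each of the 8 had a single such probe set, and none shared its values with another probe set. ISCU, which encodes the scaffold protein of the pathway, lies on a probe set that carries a second symbol, so it was left out and no value is given for it. NFU1 was chosen by its difference between the feeding groups in these same data. Its values in that comparison are therefore a description, with no test. The partners, and the lists used further below, were chosen for their role and were tested. That choice was made with earlier results of these data known, so these tests are not independent of them.

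Mammary gland was sampled with a biopsy needle in 16 female cattle of the Parda de Montaña breed, at weaning of the calf when the first lactation ended, and each heifer gave 1 Affymetrix array. CON heifers (n = 8) had a starter concentrate in addition to their dams' milk during the first 6 months of life, and NOCON heifers (n = 8) had dam's milk without concentrate. All heifers suckled for 30 min at a time, and all were later, up to 15 months of age, fed alfalfa hay with concentrate at a forage to concentrate ratio of either 67:33 or 87:13, each given to equal numbers of both groups. The ratio of a single heifer is not labelled, so it was not compared and could not enter the fit. The comparison of CON with NOCON addresses whether early feeding left a lasting mark on gene expression in the mammary gland, and here whether the pathway follows NFU1.

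Iron-sulfur clusters are small assemblies of iron and sulfur that let proteins pass electrons or catalyse reactions. In mitochondria, sulfur taken from cysteine by NFS1 is joined with iron on the ISCU scaffold, the cluster is released with the help of the co-chaperone HSCB and passed on by the glutaredoxin GLRX5. ISCA1 and ISCA2 then build larger clusters, which NFU1 and BOLA3 help to place in proteins such as lipoyl synthase (LIAS) and subunits of the respiratory chain. The lactating mammary gland is rich in mitochondria, which supply energy and precursors for milk synthesis.

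Values are expression on the log2 scale as the authors deposited them, and differences are CON minus NOCON on that scale. The arrays differed in quality. The median correlation of CON 7 with the other arrays was 0.866, CON 2, CON 6, NOCON 1 and NOCON 5 lay between 0.953 and 0.974, and the remaining 11 lay at 0.986 or above. CON 7 also had the narrowest interquartile range, 1.49, against 1.68 to 2.15 on the other arrays. The milk protein genes, which define lactating epithelium, were bright on every array: the mean over 6 of them ran from 11.96 to 12.16 in CON and from 11.93 to 12.07 in NOCON. All 12 luminal epithelial markers had lower means in CON, and 10 of 12 without CON 7, against 48.1% and 49.9% of all probe sets. Their median log2 difference was -0.16, and -0.08 without CON 7. Their mean per array ran from 6.78 (CON 7) to 7.53 in CON, or from 7.30 without CON 7, and from 7.40 to 7.68 in NOCON. No marker gene passed the adjusted test. The median differences of the 9 lists for other cell types ran from -0.12 (skeletal muscle) to 0.12 (myoepithelium and smooth muscle), and without CON 7 the highest was 0.32 (endothelium). No marker can be at 0 on this scale, whose lowest value was 2.73. In a biopsy, fewer cells of a type and less RNA per cell cannot be told apart. The part of these shifts in the results below was not tested.

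NFU1 separated the groups completely. Its lowest, median and highest values were 6.59, 7.11 and 7.28 in CON and 7.66, 7.84 and 8.14 in NOCON. All 8 CON heifers lay below the lowest NOCON heifer, with a gap of 0.38 between the groups. Such a separation in either direction was found for 0.176% of all probe sets, a background given for orientation, since NFU1 was chosen on this contrast. CON heifers averaged 7.05 ± 0.22 and NOCON heifers averaged 7.86 ± 0.19 (SD, n = 8 in both groups), a log2 difference of -0.80, or 1.74-fold lower in CON. The difference was -0.74 without CON 7, the lowest array, and -0.64 without the 5 arrays of low correlation. Within CON the remaining 7 heifers spanned 6.92 to 7.28, a narrower range than the distance to NOCON. NOCON 1 and NOCON 5 were the highest heifers, both at 8.14. Of the arrays with the narrowest spread of values, CON 7, CON 2 and CON 6 stood at 6.59, 7.19 and 7.04, and NOCON 1 at 8.14. The part of array quality in the NFU1 difference was not tested.

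**Figure D1:**
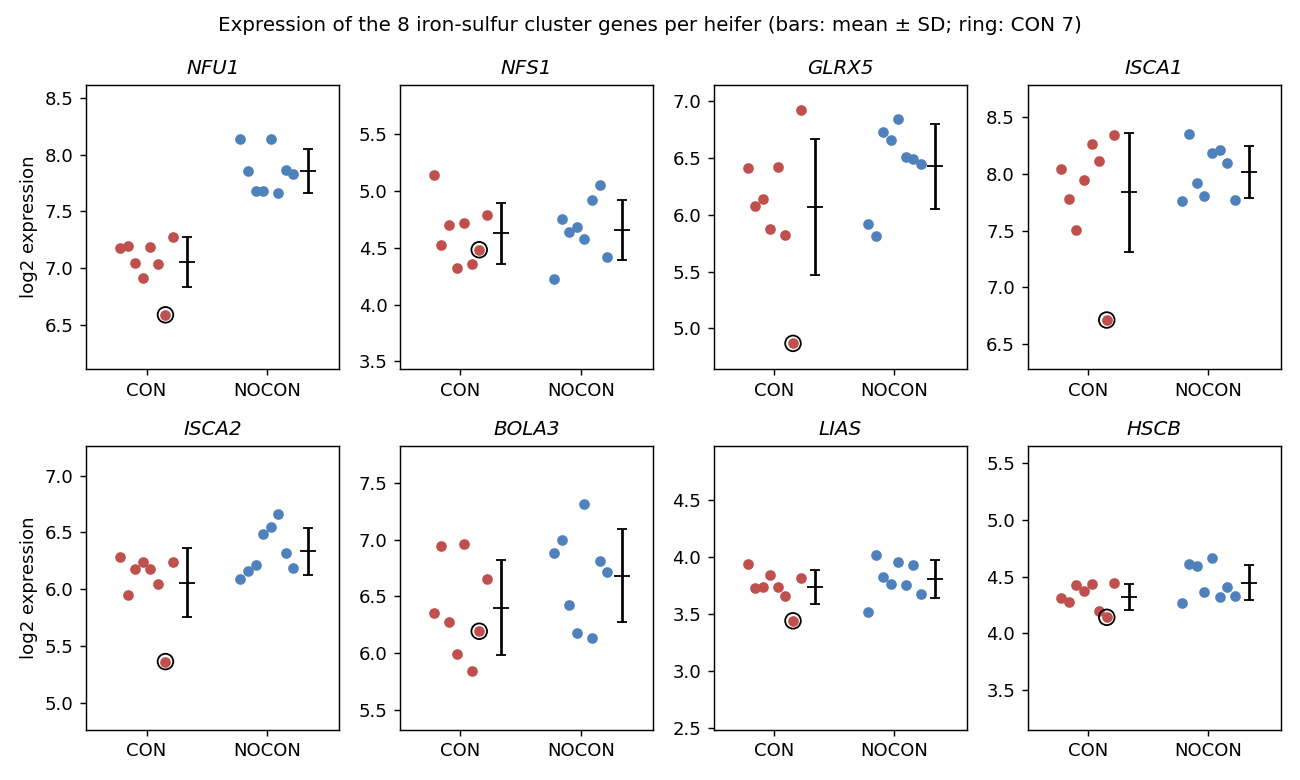
Log2 expression (vertical axis, 2.5 units in every panel) of NFU1 and its 7 partners in CON heifers (left in each panel) and NOCON heifers (right), with 1 point per heifer, the mean ± SD (n = 8) as a bar and CON 7 ringed. The groups are apart for NFU1, with 7.28 as the highest CON value and 7.66 as the lowest NOCON value, and overlap for each of the 7 partners.

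The partners did not show such a separation. None of the 7 passed limma's test at an adjusted p of 0.05 over all probe sets, where 0.0598% of all probe sets passed, and the groups overlapped for each of them. Their adjusted p-values ran from 0.57 (ISCA2) to 0.946 (NFS1). One partner, ISCA2, had an unadjusted limma p and an exact permutation p under 0.05. Among all probe sets, 5.10% were lower in CON at an unadjusted p under 0.05, and 10.4% had an exact p under 0.05 in either direction. All 7 partners had lower means in CON, which was so for 48.1% of all probe sets, with a median log2 difference of -0.18. Without CON 7 all 7 means were still lower, against 49.9% of all probe sets, but the median was -0.10, and without the 5 arrays of low correlation it was -0.04. The median over all probe sets was 0.0058, 0.00025 without CON 7 and -0.0042 without the 5 arrays.

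At the start of the pathway, NFS1, the cysteine desulfurase that supplies the sulfur, had the smallest difference of the 7. NFS1 had means of 4.63 in CON and 4.66 in NOCON, a little above the array medians of 4.25 to 4.57. Its lowest, median and highest values were 4.32, 4.62 and 5.14 in CON and 4.23, 4.66 and 5.05 in NOCON, and the ranges lay almost on top of each other. The log2 difference was -0.03 (SE 0.13, 95% interval -0.30 to 0.24, adjusted p = 0.946), and its sign turned when any of 4 single arrays was left out. HSCB, the co-chaperone that brings the loaded scaffold to the mitochondrial chaperone, lay close to the array medians of 4.25 to 4.57, where signals are dim. It stood at 4.14, 4.34 and 4.44 (lowest, median and highest) in CON and at 4.27, 4.38 and 4.66 in NOCON. Of the 8 CON heifers, 2 lay below all NOCON heifers, and the log2 difference was -0.12 (SE 0.07, 95% interval -0.27 to 0.03).

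GLRX5, the glutaredoxin that receives the cluster from the scaffold, had the most negative difference among the partners and, in CON, the widest spread. Values ran from 4.87 through a median of 6.11 to 6.92 in CON and from 5.82 through 6.50 to 6.85 in NOCON. The lowest heifer was CON 7, and the highest of all 16 was also a CON heifer, CON 8. The log2 difference was -0.36 (SE 0.23, 95% interval -0.85 to 0.14, adjusted p = 0.629). It was -0.19 without CON 7 and -0.09 without the 5 arrays of low correlation.

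ISCA1 and ISCA2, the A-type proteins that work together on the larger clusters, were both lowest in CON 7. ISCA1 was at 6.71, 7.99 and 8.34 (lowest, median and highest) in CON and at 7.76, 8.01 and 8.35 in NOCON. Its medians were almost equal, and the difference of -0.18 (SE 0.19, adjusted p = 0.76) was -0.016 without CON 7. ISCA2 was at 5.36, 6.18 and 6.28 in CON and at 6.09, 6.26 and 6.66 in NOCON. Here 3 CON heifers lay below the lowest NOCON heifer, and 4 NOCON heifers lay above the highest CON heifer. The log2 difference of ISCA2 was -0.27 (SE 0.12, 95% interval -0.54 to -0.0098, adjusted p = 0.57), and without CON 7 it was -0.17 with an interval of -0.36 to 0.011.

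BOLA3, which acts with NFU1 and GLRX5 at the late steps, varied widely among heifers of both groups. It was at 5.84, 6.32 and 6.96 (lowest, median and highest) in CON and at 6.13, 6.76 and 7.31 in NOCON. The ranges overlapped over most of their length. The log2 difference was -0.28 (SE 0.19, 95% interval -0.69 to 0.13, adjusted p = 0.647), and it was -0.25 without CON 7, the partner difference with the largest size in that fit. Without the 5 arrays of low correlation it was -0.09. LIAS, lipoyl synthase, which itself holds clusters and makes the lipoyl cofactor of pyruvate dehydrogenase and related enzymes, was dim in both groups. It was at 3.44, 3.74 and 3.94 in CON and at 3.52, 3.80 and 4.02 in NOCON, below the median of every array. Its log2 difference was -0.07 (SE 0.08, 95% interval -0.24 to 0.10), and it was -0.027 without CON 7 and -0.015 without the 5 arrays of low correlation. Differences of signals this dim may be understated.

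Set against NFU1, the intervals show how far the partners could have followed it. The value of -0.80 lay inside the 95% interval of 1 of the 7 partners, GLRX5. Without CON 7, none of the 7 intervals held the NFU1 difference of that fit, -0.74, the lowest bounds being -0.68 for BOLA3 and -0.57 for GLRX5. Because NFU1 was chosen for the size of its difference, this is a description of where the values lie and not a test.

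**Figure D2:**
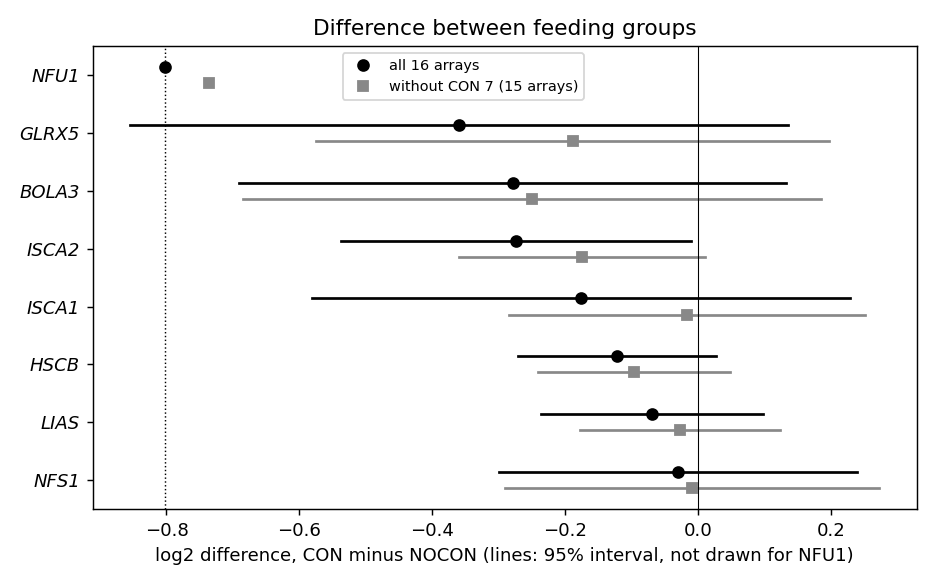
Log2 difference, CON minus NOCON (horizontal axis), of NFU1 and the 7 partners with all 16 arrays (black circles) and without CON 7 (grey squares). Lines are 95% intervals of the limma fit, none is drawn for NFU1, and the dotted line marks the NFU1 difference of -0.80. The partner estimates lie between -0.36 and -0.03.

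Covariation inside a group did not enter the choice of NFU1, so each partner was also compared with NFU1 among the 8 heifers of each group, 14 relations in all. In CON, all 7 partners had a positive Pearson's r with NFU1, from 0.51 (NFS1) to 0.94 (GLRX5). In NOCON 2 were positive and 5 negative, ISCA1 among these at -0.0036. The share of all genes with a positive r was not counted, so these counts are not read as a trait of the partners. One relation passed after adjustment over the 14 relations, GLRX5 in CON (r = 0.94, exact permutation p = 0.00107, adjusted p = 0.0149). Its Spearman's rho was 0.83 (exact p = 0.0154, adjusted p = 0.102). The relation was r = 0.84 (exact p = 0.0486) without CON 4 and CON 7, the heifers farthest from the CON median of NFU1, and 0.83 (exact p = 0.0208) without CON 7 alone. The call was lost without CON 7 (adjusted exact permutation p = 0.146), without CON 4 (0.0507) and without CON 8 (0.0597), with r between 0.83 and 0.95. Without the 5 arrays of low correlation r was 0.96 (adjusted exact permutation p = 0.117). The 5 CON heifers left there give too few pairings for a single CON relation to pass after adjustment over the 14 relations. That fit therefore cannot show whether the call holds. The call did not last under a further quantile normalization, which gave each array the same distribution of values and turned r to -0.25. In NOCON, GLRX5 had r = -0.27 with NFU1. A test of the difference between the groups was not run.

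CON 7 was the lowest CON heifer for NFU1 and for 5 of the 7 partners. In CON, 4 of the 7 partners had an r over 0.7 with NFU1, as had 17.2% of all genes. Without CON 7 these were 2 of 7, GLRX5 and BOLA3, against 2.47% of all genes, and in NOCON 1 of 7, BOLA3, against 7.51%. An r at least as high as that of GLRX5 in CON was found for 0.239% of all genes. ISCA1, ISCA2 and LIAS, at r = 0.85, 0.79 and 0.73 with NFU1 in CON, were at 0.44, -0.04 and 0.12 without CON 7. HSCB was at 0.63 and, without CON 7, at 0.21, and NFS1 at 0.51 and 0.63. The adjusted exact permutation p-values of these 5 relations ran from 0.0971 to 0.309, and those of their Spearman's rho, which lay between 0.19 and 0.69, from 0.243 to 0.775. Without CON 4 and CON 7 these 5 had r from 0.27 to 0.56, with exact p from 0.242 to 0.61. With the quantile normalization all 5 turned negative in CON, from -0.68 (LIAS) to -0.0097 (ISCA1).

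BOLA3 had a positive r with NFU1 in both groups, as had HSCB, and passed the threshold in neither with all arrays as deposited. In NOCON r was 0.86 (exact permutation p = 0.00724, adjusted p = 0.0507) and Spearman's rho 0.90 (exact p = 0.00456, adjusted p = 0.0639). Without NOCON 1 and NOCON 5, the heifers farthest from the NOCON median of NFU1, r was 0.95 (exact p = 0.0181). An r at least as high as this in the 8 NOCON heifers was found for 0.781% of all genes. In CON, r was 0.57 (exact p = 0.132, adjusted p = 0.264) and rho 0.81 (exact p = 0.0218, adjusted p = 0.102). CON 7, the lowest CON heifer for NFU1 and the third lowest for BOLA3, lay off the line of the others: without it r was 0.78 (exact p = 0.0454), and without CON 4 as well it was 0.74 (exact p = 0.0986). The quantile normalization left r at 0.70 in CON and 0.86 in NOCON (adjusted exact permutation p = 0.0219). BOLA3 in NOCON also passed with median centring (adjusted exact permutation p = 0.0328), without NOCON 1 (0.00972) and without NOCON 2 (0.0111). In the other 17 alternatives it did not pass. The other 6 partners in NOCON had r between -0.53 (NFS1) and 0.13 (HSCB), with adjusted exact p-values from 0.309 to 0.992, and rho between -0.36 and 0.29, with adjusted exact p-values from 0.701 to 0.793. Without NOCON 1 and NOCON 5 these 6 had r from -0.65 (ISCA2) to 0.51 (LIAS), with exact p from 0.0972 (GLRX5) to 0.933 (NFS1).

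**Figure D3:**
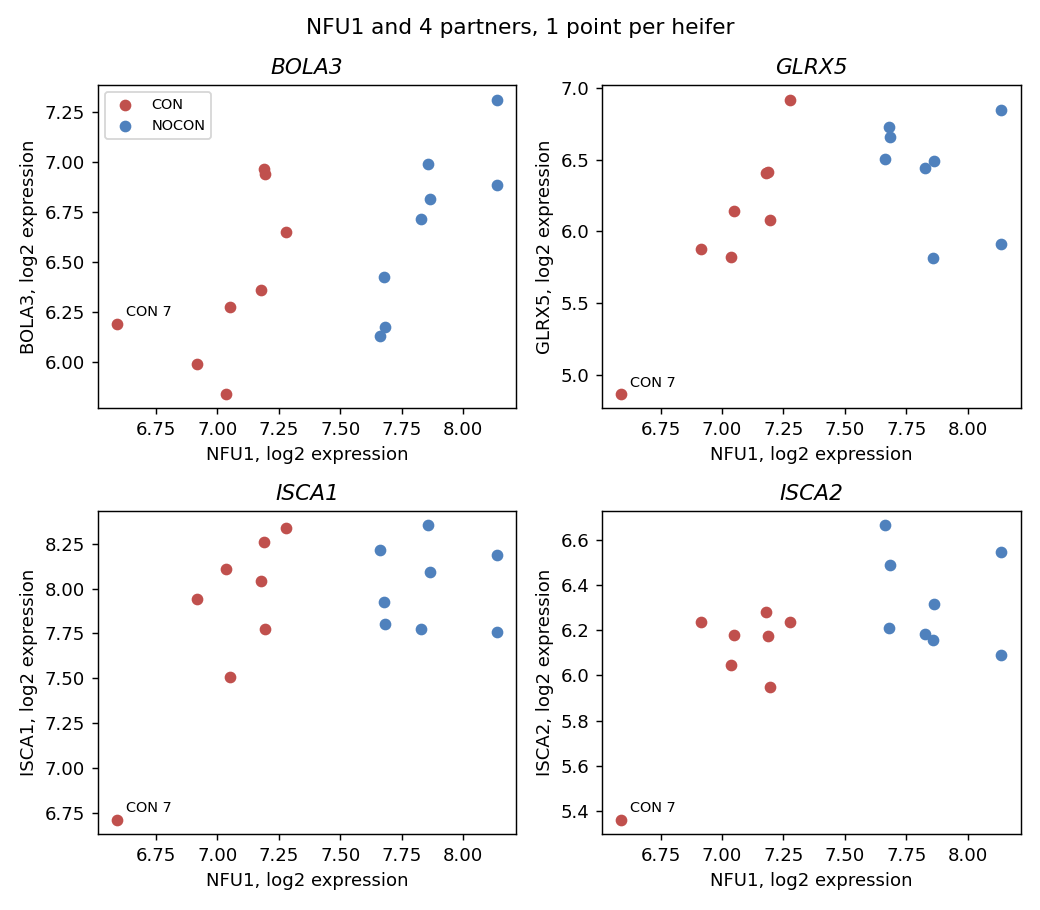
NFU1 (horizontal axis, log2 expression) against BOLA3, GLRX5, ISCA1 and ISCA2 (vertical axes, log2 expression), with 1 point per heifer, CON in red and NOCON in blue. BOLA3 lies higher where NFU1 is higher inside each group (r = 0.57 in CON and 0.86 in NOCON), while in the other panels CON 7 stands apart at the lower left.

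**Figure D4:**
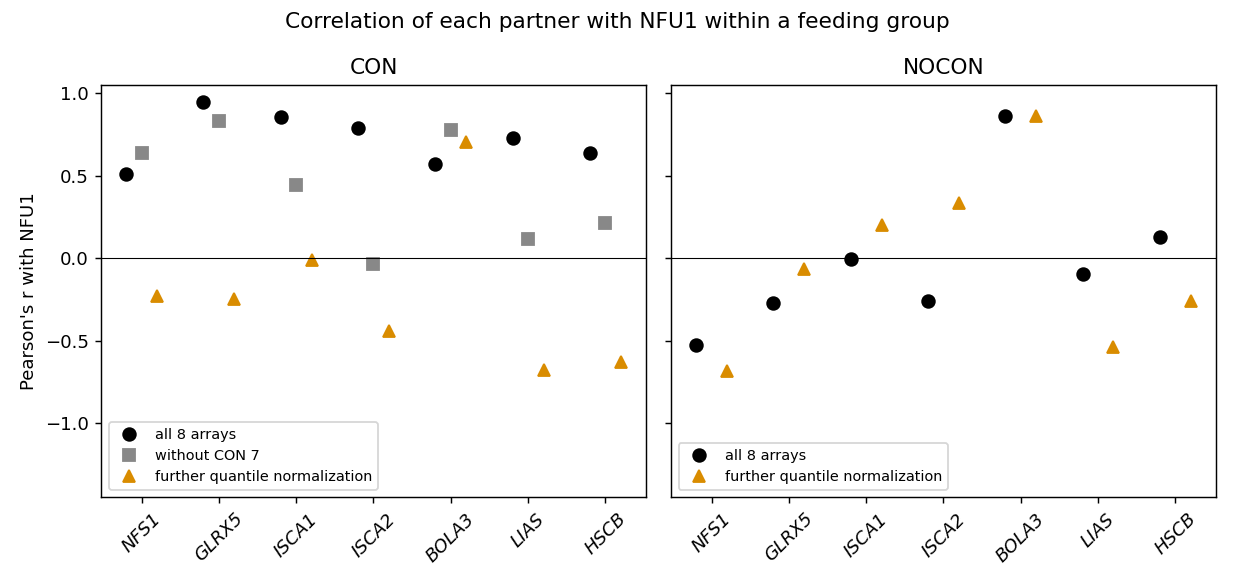
Pearson's r of each partner with NFU1 (vertical axis) in CON (left) and NOCON (right), with all 8 arrays (black circles), without CON 7 (grey squares, CON only) and after a further quantile normalization (orange triangles). BOLA3 is above 0.5 in each setting shown, while GLRX5 in CON is at 0.94, 0.83 and -0.25.

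The wider pathway was described with 7 lists, which hold 62 genes beside the members, while 5 listed genes were not analysed here. None of the 62 passed with limma or with the exact test after adjustment over all probe sets. At an unadjusted limma p under 0.05, 10 were lower (16.1%) and 1 was higher in CON, against 5.10% lower and 3.57% higher among all probe sets. An exact permutation p under 0.05 in either direction was also found for 10 of the 62, the same 16.1%, against 10.4% of all probe sets. Of the 62, 45 had lower means in CON (72.6%, against 48.1% of all probe sets), with a median log2 difference of -0.11. Without CON 7 it was 41 genes, against 49.9% of all probe sets, with a median of -0.07, and 11 were lower at an unadjusted p under 0.05, against 5.91% of all probe sets. Without the 5 arrays of low correlation the median was -0.0074.

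The list with the largest shift was the cytosolic assembly machinery, which builds clusters for proteins outside mitochondria. Of 12 genes, 10 had lower means in CON (median log2 difference -0.27). At an unadjusted limma p under 0.05, 5 were lower with all arrays and 3 without CON 7, against 5.10% and 5.91% of all probe sets. NUBP2, one of a pair of scaffold proteins of this machinery, was at 4.60, 4.79 and 5.18 (lowest, median and highest) in CON and at 4.98, 5.18 and 5.49 in NOCON. For NUBP2, 7 of 8 CON heifers lay below all NOCON heifers (log2 difference -0.39, SE 0.09, adjusted p = 0.199), and the difference was -0.38 without CON 7 and -0.22 without the 5 arrays of low correlation. NUBP1, its partner scaffold, and CIAO3, which passes clusters on to the targeting complex, differed by -0.50 (SE 0.18) and -0.36 (SE 0.13). Their adjusted limma p were 0.502 and 0.484. Without the 5 arrays of low correlation NUBP1 and CIAO3 differed by -0.22 and -0.08. The median of the list was -0.15 without CON 7, where 11 of 12 means were lower (49.9% of all probe sets), and -0.07 without the 5 arrays.

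Among 6 further genes of early assembly, 5 had lower means in CON (median -0.13, and -0.07 without CON 7). LYRM4, the small protein that stabilises NFS1, was at 4.53, 5.01 and 5.17 (lowest, median and highest) in CON and at 5.02, 5.21 and 6.02 in NOCON, with 4 CON heifers below all NOCON heifers (log2 difference -0.37, SE 0.14, adjusted p = 0.518). The ferredoxin FDX2, which gives electrons to the scaffold, differed by -0.22, and the iron importer SLC25A37 by -0.17. The chaperone HSPA9 and its exchange factor GRPEL1, which release the cluster from ISCU, differed by -0.06 and -0.13, and HSPA9 by 0.13 without CON 7, where the median of the pair was 0.016. At the late steps, BOLA1 differed by -0.16 (SE 0.06, adjusted p = 0.519), IBA57, which works with ISCA1 and ISCA2, by -0.10, and NUBPL, which serves respiratory complex I, by -0.06. All 3 lay near the array medians.

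The lists of proteins that use the clusters or the lipoyl cofactor held genes with lower and with higher means. Of 9 genes of lipoate synthesis and lipoylated proteins, 5 had lower and 4 higher means in CON (median -0.07, and -0.0074 without CON 7). Without the 5 arrays of low correlation the median was 0.06. GCSH, the lipoylated protein of glycine cleavage, had a higher mean in CON, with 4.60, 4.97 and 6.42 (lowest, median and highest) against 4.54, 4.67 and 5.02 in NOCON. Its highest value was that of CON 7, and the log2 difference of 0.47 (SE 0.21, adjusted p = 0.57) was 0.30 without it. DLD, the dehydrogenase that reoxidises lipoyl groups, differed by -0.26, and by -0.07 without CON 7. LIPT2, an enzyme of lipoate transfer, was dim (means of 3.79 in CON and 3.86 in NOCON) and differed by -0.07. Of 13 mitochondrial proteins that hold a cluster, 10 had lower means in CON (median -0.13). Without CON 7 this was 7 of 13 with a median of -0.014, and without the 5 arrays of low correlation the median was 0.03. CISD3 is a small cluster protein of mitochondria, and NDUFS7 a cluster-holding subunit of complex I. They differed by -0.53 (SE 0.19) and -0.54 (SE 0.21), with adjusted limma p of 0.486 and 0.536. Without CON 7 the differences were -0.38 and -0.35, and without the 5 arrays of low correlation -0.34 and -0.16. NDUFS8, another complex I subunit that holds a cluster, differed by -0.26, and by -0.0051 without these 5 arrays. Of 17 cytosolic and nuclear cluster proteins, 10 had lower means (median -0.06). CISD2, a cluster protein of outer mitochondrial and endoplasmic reticulum membranes, differed by -0.50 (SE 0.16, adjusted p = 0.43), and the DNA repair proteins NTHL1 and ERCC2 by -0.16 and -0.15.

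**Figure D5:**
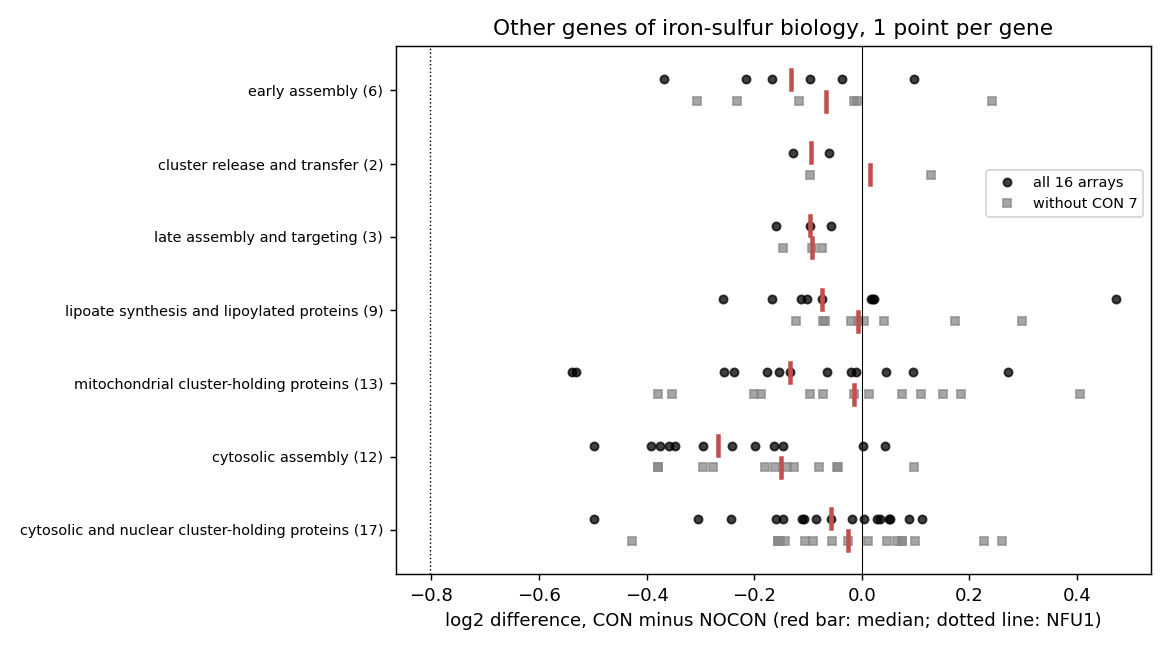
Log2 difference, CON minus NOCON (horizontal axis), of the 62 further genes, 1 point per gene, by list (number of genes in brackets), with all 16 arrays (black circles) and without CON 7 (grey squares). Red bars are medians and the dotted line marks NFU1 at -0.80, below every point, and the median of the cytosolic assembly list is -0.27 with all arrays and -0.15 without CON 7.

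Genes whose pattern is most like that of NFU1 were ranked by Pearson's r over the 16 arrays of the deviations from the group mean, so that the difference between groups does not enter. No p is given, since they were picked as the extremes of 18434 genes. The 6 highest were MRPL13 (r = 0.93) and MRPS21 (0.89), which encode proteins of the mitochondrial ribosome, NDUFC1 (0.91), NDUFC2 (0.89) and NDUFA11 (0.89), accessory subunits of respiratory complex I, and LOC781064 (0.90). Without CON 7 they were between 0.81 (NDUFA11) and 0.89 (MRPL13), and after the quantile normalization between 0.61 (NDUFA11) and 0.84 (NDUFC2). Without the 5 arrays of low correlation the 6 were between 0.65 (NDUFA11) and 0.85 (NDUFC1). The 3 lowest were HOXC8 (-0.94), a homeobox transcription factor, the microRNA gene MIR2465 (-0.87) and the cadherin gene CDH6 (-0.85), all below or near the array medians. After the quantile normalization these 3 were at -0.71, -0.72 and -0.58, and without the 5 arrays of low correlation at -0.84, -0.37 and -0.78. These r share the arrays and thus their quality. Between the groups, the log2 differences of the 6 highest genes lay between -0.40 (MRPS21, SE 0.14) and -0.14 (LOC781064, SE 0.17), with adjusted limma p from 0.484 to 0.785. They are not set against NFU1, which was chosen for its difference. Of the partners, BOLA3 had an r of 0.70 with NFU1 over the same deviations, and the other 6 lay between 0.03 (NFS1) and 0.59 (ISCA1). With CON 7 left out of these deviations, BOLA3 was at 0.80 and the other 6 between -0.13 (ISCA2) and 0.22 (ISCA1).

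The genes beside NFU1 on its chromosome, in the RefSeq gene order of assembly ARS-UCD2.0, are given as values. Since NFU1 was chosen for its difference, smaller differences in its neighbours tell little. GFPT1, the rate-limiting enzyme of hexosamine synthesis and the nearest gene on one side, was at 6.41, 8.08 and 8.21 (lowest, median and highest) in CON and at 6.99, 8.06 and 8.40 in NOCON, with a log2 difference of -0.12 (SE 0.24). AAK1, a kinase of clathrin-mediated uptake and the nearest on the other side, differed by -0.06 (SE 0.35). The next genes outward were ANTXR1 (0.09) and GKN1 (0.09) on the side of GFPT1, and ANXA4 (0.03) and GMCL1 (-0.11) on the side of AAK1. Their groups overlapped in all 6 cases, and the adjusted p-values ran from 0.635 to 0.968. Without CON 7, GFPT1 and AAK1 differed by 0.09 and 0.22.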

How the data were processed

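The authors deposited log2 expression values for 16 arrays, 1 per heifer. Per the submitters' processing notes the tools were GCOS and RMA, whose versions are not listed. RMA corrects background, normalizes between arrays and summarises probes. The log base is read from the value range of 2.73 to 12.66. The chip definition, build and filters are not stated in the sources used here. The deposited table holds no probe-level signals, so detection was not assessed, and differences of dim probe sets may be understated. The number of arrays, 8 per group, limits the precision, and p-values rest on the spread between heifers, which includes biopsy and array variation.

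The array annotation names 1 gene for 18790 of the 26773 probe sets and several for 385. Symbols were matched by gene ID to RefSeq (ARS-UCD2.0), used for names and gene order alone. CON was compared with NOCON, groups coming from the titles, with limma 3.58.1 in R 4.3.3 over all probe sets without covariates, Benjamini-Hochberg adjustment and a threshold of 0.05. Exact two-sided permutation tests used 12870 regroupings for differences and 40320 pairings of 8 heifers for correlations. The limma fit was tested on simulated data, and so was the correlation test, with sets smaller than those used here. The regrouping test was checked on a constructed set of fully separated values only. The members and lists were chosen with earlier results of these data known. Named are all members, the 3 genes of each list with the smallest p, the 6 genes most and the 3 least like NFU1, and 3 neighbours on each side, with the brightest probe set of a gene. Because ISCU was left out, 7 partners and 14 relations were tested where 8 and 16 had been planned. Alternatives were other normalizations, filters and fits, and leaving out arrays.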

Additional observations from a re-analysis of the deposited data

Results flagged for a closer look

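ISCA2 in CON 7 stood apart from its group: at 5.36 it was the lowest of the 8 CON heifers, with the next at 5.95, and the gap filled 0.64 of the whole range, above Dixon's 95% critical value of 0.526 for 8 samples. Of 16 sets of 8 values examined, 2 for each of the 8 genes, this was the one that did so, and chance flags about 1 in 20. CON 7 was also the lowest CON array for NFU1 (6.59), GLRX5 (4.87), ISCA1 (6.71), LIAS (3.44) and HSCB (4.14), with gaps of 0.17 to 0.49 of the range.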

How the results depend on the processing

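The NFU1 difference was negative in all 25 alternatives, from -0.83 (without CON 8) to -0.64 (without the 5 arrays of low correlation), and with the replicate block it was -0.80. NFU1 was chosen on this contrast, and its groups do not overlap. Leaving out arrays therefore could not turn its sign, and the count of 25 is a description. No partner and none of the 62 further genes passed in any alternative run, the replicate block, the exact test and an adjusted p of 0.10 included. LIAS and LIPT2 could not be tested among the brightest 60% of probe sets. Averaging a gene's probe sets left the members as they were, since each has 1. The replicate numbers share nothing but a number, as 2 of 8 same-numbered pairs had deviations correlated above 0.1 and 2 of 16 arrays correlated best with their own number, and the block changed no call. The alternatives for list medians, listed genes, neighbours and likeness were added after seeing the data.

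The count of correlations past the threshold, 1, was 2 with median centring, 0 with Spearman's rho and 0 without the 5 arrays of low correlation. There 5 CON and 6 NOCON arrays stay, and 5 arrays are too few for a single CON relation to pass. With 1 array left out the count ran from 0 (without CON 4, CON 7 or CON 8) to 2 (without NOCON 1 or NOCON 2). Where the count was 2, the calls were GLRX5 in CON and BOLA3 in NOCON. With quantile normalization the only call was BOLA3 in NOCON. Apart from r of GLRX5 in CON under quantile normalization, a call, no value that turned sign had passed a test. In the fit with the first principal component, NFS1, HSPA9, GFPT1 and AAK1 differed by 0.038, 0.23, 0.12 and 0.32. With array weights, HSPA9, GFPT1 and AAK1 differed by 0.12, 0.0099 and 0.19, and with quantile normalization HSPA9 by 0.031. Without the 5 arrays HSPA9, DLD, GFPT1 and AAK1 differed by 0.12, 0.030, 0.035 and 0.20. With 1 array left out NFS1 ran from -0.10 to 0.026, HSPA9 from -0.20 to 0.13, ANTXR1 from -0.068 to 0.30, GFPT1 from -0.27 to 0.086, AAK1 from -0.24 to 0.22 and ANXA4 from -0.10 to 0.22.

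Quantile normalization gave r with NFU1 in CON of -0.23 for NFS1, -0.25 for GLRX5, -0.0097 for ISCA1, -0.44 for ISCA2, -0.68 for LIAS and -0.63 for HSCB, and in NOCON of 0.20 for ISCA1, 0.33 for ISCA2 and -0.26 for HSCB. In NOCON median centring gave 0.063 for ISCA1 and 0.0062 for LIAS, whose rho was 0.24. Without the 5 arrays NFS1, ISCA1 and LIAS were at 0.057, 0.25 and 0.51 in NOCON. With 1 array left out r ran from -0.036 to 0.90 for ISCA2 in CON, and in NOCON from -0.76 to 0.084 for GLRX5, -0.24 to 0.36 for ISCA1, -0.69 to 0.020 for ISCA2, -0.42 to 0.57 for LIAS and -0.32 to 0.56 for HSCB. The cause of these turns was not tested. Dim signals limit LIAS, LIPT2, HSCB, NFS1, BOLA1, IBA57 and NUBPL.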
